A study of Bos taurus with 29 samples.

Results

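The storage of maternal messenger RNA and the control of its poly(A) tail were followed through meiotic maturation in single cattle oocytes through 9 genes: ZAR1, ZAR1L, YBX2, LSM14B, PATL2, CPEB1, DAZL, PUM2 and PABPC1. They were chosen by name, with earlier results of these data known. All 9 had a row among the 13502 genes of the deposited table, and all 9 were among the 11852 genes with at least 1 CPM (reads scaled to a common library total) in at least 6 libraries. The oocytes were labelled wild type (WT) and came from follicles of cattle stimulated with follicle stimulating hormone (FSH). Germinal vesicle (GV) oocytes, arrested before meiosis resumes, were stripped of cumulus cells at collection (7 analysed of 9 labelled). Conventionally matured oocytes (IVM; 8 of 10) spent 22 h inside their cumulus in medium with 5 µg/mL FSH and epidermal growth factor (EGF) at 50 ng/mL. CNP_IVM oocytes (7 of 10) first spent 6 h in the same medium with 200 nM C-type natriuretic peptide (CNP) and no EGF, followed by the 22 h of maturation. CNP is the follicular signal that keeps meiosis from resuming, by way of cyclic GMP. Oocytes of both cultures were taken at metaphase II, judged by the polar body.

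A growing oocyte makes more messenger RNA than it translates, and transcription is silent from the end of growth until the embryonic genome is activated. Stored transcripts are kept in ribonucleoprotein particles with short poly(A) tails. When meiosis resumes, selected transcripts are polyadenylated in the cytoplasm and translated, and many others lose their tails and are degraded. ZAR1, ZAR1L, YBX2, LSM14B and PATL2 belong to the packaging and repression side of this system. CPEB1, DAZL and PUM2 bind 3′ untranslated regions and set which transcripts are translated, and PABPC1 covers the poly(A) tail.

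A library held 1 oocyte, and neither donor nor culture is named in the labels, so each group counted as 1 sample and no test was made. SDs and ranges show the spread between oocytes, which may share an animal. CNP and the 6 h of extra culture cannot be told apart. Levels are shares of a library primed on poly(A), so transcript amount, tail length and the rest of the library cannot be told apart either. Libraries held 20159662 to 39340040 reads. All 10 oocyte markers checked were above the filter, with summed levels of 9038 to 17747 CPM. Of 22 cumulus and granulosa markers 17 had a row, and their sum was 641 to 1033 CPM in GV, 372 to 650.3 CPM in IVM and 256 to 342 CPM in CNP_IVM oocytes. STAR alone held 547 to 844, 175 to 452 and 78.6 to 117 CPM. The order was the opposite without STAR, with medians of 94.2 (71.0 to 293), 179 (152 to 241) and 206 (155 to 242) CPM. Single markers went both ways. HAS2, a gene of cumulus expansion, averaged 16.3, 77.1 and 118 CPM, and PTGS2 13.4, 38.0 and 37.6 CPM. Of 12 cumulus and granulosa markers above the filter, only these 2 exceeded GV by 2-fold or more in either culture. Those under GV by as much, STAR included, numbered 4 in IVM and 6 in CNP_IVM. CD44, for example, averaged 23.9, 3.30 and 1.96 CPM. The granulosa receptor FSHR averaged 0.275, 0.0864 and 0.0714 CPM. Of 10 blood and immune markers 5 had a row, with sums of 207 to 379, 13.7 to 82.3 and 5.42 to 27.3 CPM. VWF alone averaged 225, 21.1 and 11.2 CPM. CD68 and PECAM1 were below the filter. CD68 averaged 0.733 CPM in GV and was at 0 in every CNP_IVM oocyte, and PECAM1 averaged 0.139, 0.523 and 0.192 CPM. The part of these markers in the results below was not tested. The title of GV replicate 9 names GV, whereas its treatment label says in vitro maturation. It had 9381 genes at 1 CPM or more against 11311 to 11798 in the other 6 GV oocytes, and it was grouped by its title. Values without it are given beside a number of results.

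The 9 genes differed in direction. ZAR1, YBX2 and PATL2 were several-fold lower in both kinds of metaphase II oocyte than in GV oocytes, PUM2 and DAZL were higher, and ZAR1L, CPEB1 and LSM14B stayed within 2-fold. A gene is called here when the group means, each with 1 CPM added, differ at least 2-fold (a log2 difference of 1). Folds printed below are ratios of the means as they stand, so they exceed what the log2 differences give for low genes. In IVM against GV, 2 of the 9 genes were at least 2-fold higher, where 15.9% of all genes past the filter were, and 3 were at least 2-fold lower, where 33.0% were. Every IVM oocyte lay above every GV oocyte for 1 gene (11.5% of all genes) and below for 3 (19.9%). In CNP_IVM against GV, 3 were at least 2-fold higher (15.3% of all genes) and 3 lower (42.0%), and groups did not overlap for 2 higher (12.9%) and 3 lower (28.0%). As shares of the 9 genes, the calls were 22.2% higher and 33.3% lower in IVM, and 33.3% each in CNP_IVM. So few genes cannot show whether a share departs from the background, and the comparisons with GV share their GV oocytes. Without GV replicate 9 the higher genes were 1 in IVM and 2 in CNP_IVM, and the lower ones still 3 in each. Of all 11852 genes, 1940 were then higher and 3761 lower in IVM, and 1763 and 4796 in CNP_IVM.

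**Figure D1:**
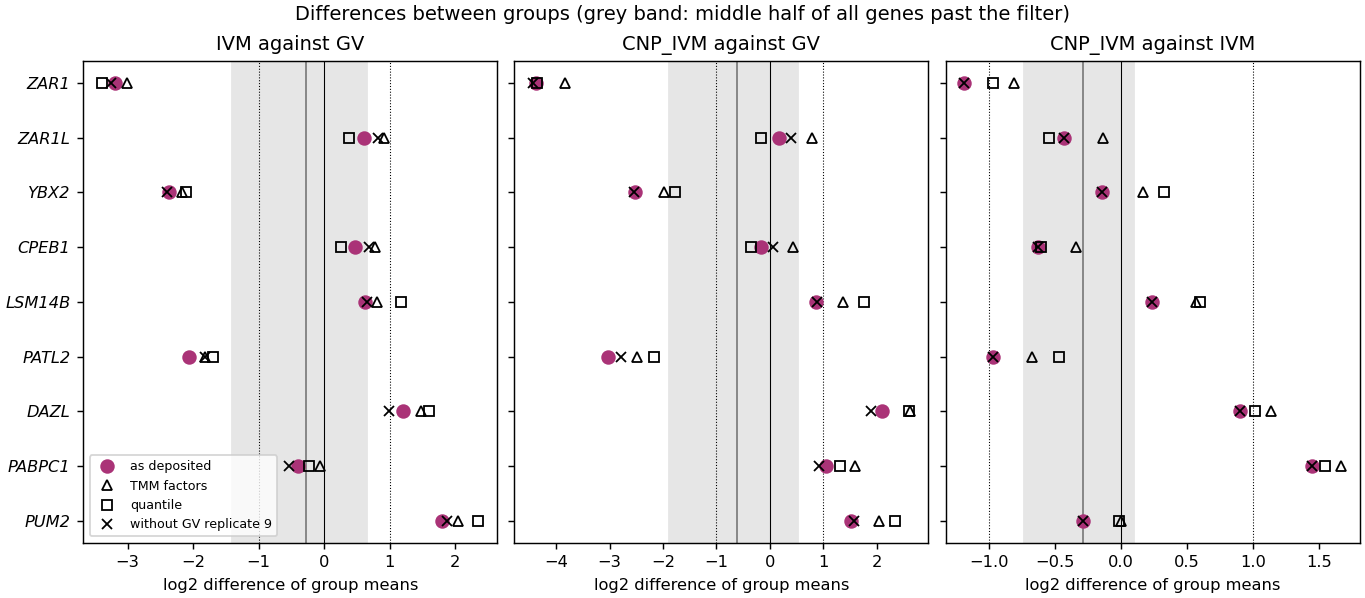
Log2 difference of group means for each of the 9 genes in the 3 comparisons, as deposited (filled circles), with TMM factors (triangles), with quantile normalization (squares) and without GV replicate 9 (crosses). Grey bands run from the lower to the upper quartile of the 11852 genes past the filter, grey lines mark their median, and dotted lines mark 2-fold. ZAR1, YBX2 and PATL2 lie to the left of -1 under every scaling in both comparisons with GV.

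Scaling moves the median of all genes. The median log2 difference over the 11852 genes was -0.28 for IVM against GV, -0.61 for CNP_IVM against GV and -0.28 for the cultures against each other. With trimmed mean of M-values (TMM) factors, which scale libraries on genes of moderate difference, these medians were -0.05, -0.16 and -0.06, and with quantile normalization 0.15, 0.14 and 0.01. Of the genes at least 2-fold apart, 32.4%, 26.8% and 11.1% were on the higher side as deposited. With TMM factors the shares were 43.8%, 43.2% and 31.5%, and with quantile normalization 52.3%, 52.6% and 40.2%.

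The ZAR family gave the widest contrast within the set. ZAR1 is an oocyte zinc finger protein that binds stored messenger RNA. Its level was 887 CPM in the lowest, 995 in the median and 2062 in the highest GV oocyte, and averaged 1245 ± 428 CPM (SD between oocytes, n = 7). IVM oocytes ran from 37.4 through 129 to 261 CPM, with a mean of 135 ± 82.2 CPM (n = 8). For CNP_IVM the values ran from 42.8 through 57.8 to 84.4 CPM, with a mean of 58.8 ± 17.2 CPM (n = 7). No matured oocyte came near the lowest GV oocyte, while the IVM and CNP_IVM ranges overlapped. ZAR1 was thus 9.23-fold lower in IVM and 21.2-fold lower in CNP_IVM than in GV oocytes, log2 differences of -3.20 and -4.38. Only 4.21% of all genes had a lower difference in IVM and 2.57% in CNP_IVM. Relative to the median of all genes ZAR1 stood at -2.91 and -3.77.

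ZAR1L, the paralogue that shares the ZAR1 zinc finger and acts with it on stored messenger RNA, did not follow. GV oocytes held 694 to 2033 CPM with a median of 941, IVM oocytes 836 to 2805 with a median of 1649.8, and CNP_IVM oocytes 898 to 1543 with a median of 1263. The groups overlapped in all comparisons. The means were 1112 ± 489.6, 1702 ± 602 and 1260.3 ± 243 CPM. The log2 difference of IVM from GV was 0.61, and 0.83 without GV replicate 9, the oocyte with the highest GV value. The difference of CNP_IVM from GV was 0.18, or 0.39 without that oocyte, and turned to -0.16 with quantile normalization. Summed, ZAR1 and ZAR1L made up 2357 ± 738 CPM in GV, 1837 ± 662 in IVM and 1319 ± 251 in CNP_IVM oocytes.

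In the RefSeq annotation of cattle assembly ARS-UCD2.0, ZAR1 overlaps FRYL and ZAR1L overlaps FRY, and the use of strand in counting is not given in the sources used here. Reads of the overlaps may therefore be shared or lost. Mean FRYL levels were 85.8, 154 and 112 CPM in GV, IVM and CNP_IVM. FRY averaged 32.1, 41.2 and 39.9 CPM in the same order. The part of the overlaps in the ZAR1 and ZAR1L values was not tested. CPEB1 overlaps a long noncoding and a small nucleolar RNA gene, and the other 6 genes overlap none.

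**Figure D2:**
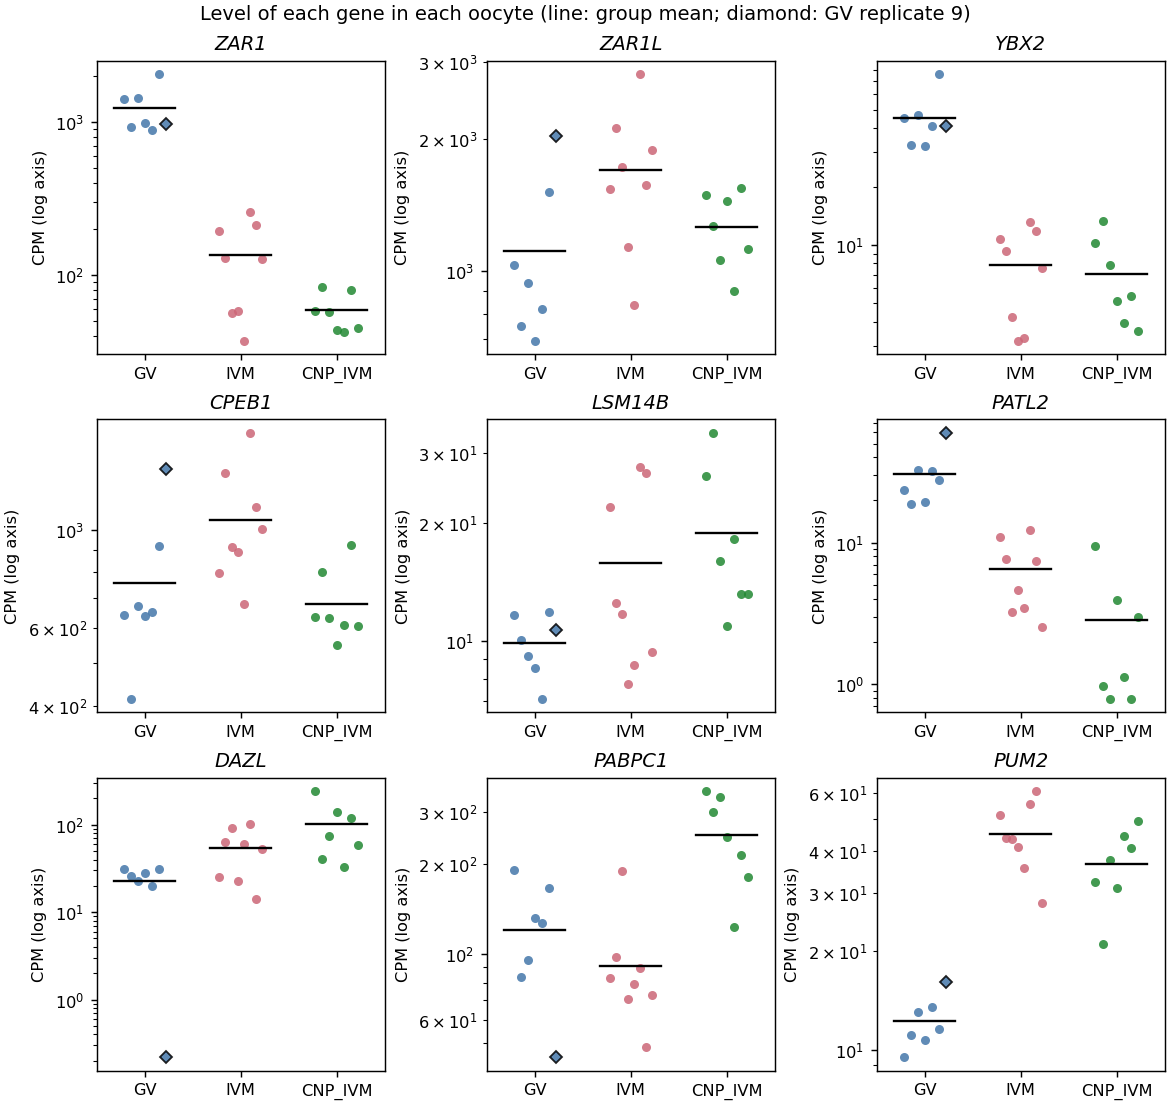
Level of each of the 9 genes in each of the 22 oocytes, in CPM on log axes, by group, with the group mean as a line and GV replicate 9 as a diamond. For ZAR1, YBX2 and PATL2 every GV point lies above every matured one, for PUM2 below, and for ZAR1L, CPEB1 and LSM14B the groups overlap.

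Among the other packaging proteins, YBX2 and PATL2 were lower after maturation and LSM14B was not. YBX2, also called MSY2, is the germ cell Y-box protein that coats and stabilises stored messenger RNA. It ran from 32.6 through 41.3 to 76.1 CPM in GV oocytes, from 3.19 through 8.42 to 13.2 CPM in IVM and from 3.59 through 5.41 to 13.3 CPM in CNP_IVM oocytes. Every matured oocyte of both cultures lay below every GV oocyte, and the 2 cultures covered nearly the same range. The means of 45.1 ± 14.7, 7.89 ± 3.95 and 7.05 ± 3.60 CPM put YBX2 at 5.72-fold lower in IVM and 6.40-fold lower in CNP_IVM than in GV, log2 differences of -2.38 and -2.52. Counting error was worked out for the summed reads only, not for single oocytes. Summed over the oocytes of a group, YBX2 had 10137, 2191 and 1870 reads, or 45.7 CPM (44.8 to 46.6), 8.29 CPM (7.95 to 8.65) and 7.12 CPM (6.80 to 7.45), with exact 95% Poisson intervals. These intervals cover counting error alone, since reads are not independent molecules after amplification.

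PATL2 is the oocyte form of the PAT1 proteins, which repress translation and bind decapping factors in other cells. GV oocytes held 18.7 to 59.6 CPM with a median of 27.8, IVM oocytes 2.56 to 12.3 with a median of 6.01, and CNP_IVM oocytes 0.788 to 9.40 with a median of 1.12. Each matured oocyte was below each GV oocyte. The means as they stand were 4.66-fold lower in IVM and 10.7-fold lower in CNP_IVM. With 1 CPM added to each mean the log2 differences were -2.06 and -3.03, and -1.82 and -2.79 without GV replicate 9, which had the highest value. With group medians in place of means, CNP_IVM against GV came to -3.76. The CNP_IVM mean of 2.86 ± 3.14 CPM rests on few oocytes, since 4 of 7 lay at 1.12 CPM or below.

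LSM14B, a repressor of the RAP55 family found in the same particles, had a higher mean after maturation. It had 7.09 to 11.8 CPM in GV oocytes with a median of 10.0, 7.75 to 27.6 in IVM with a median of 12.1, and 10.9 to 33.9 in CNP_IVM with a median of 15.96. The groups overlapped, and matured oocytes varied more than GV oocytes did (SDs of 1.72, 8.31 and 8.34 CPM). Log2 differences from GV were 0.63 for IVM and 0.87 for CNP_IVM, under 2-fold. With TMM factors they were 0.81 and 1.38, and with quantile normalization 1.17 and 1.77.

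Regulators that bind 3′ untranslated regions went different ways. CPEB1 binds the cytoplasmic polyadenylation element, represses its targets in the arrested oocyte and promotes their polyadenylation once it is phosphorylated. Its level was 414 to 1370.0 CPM in GV with a median of 651, 678 to 1654 CPM in IVM with a median of 956, and 549 to 921 CPM in CNP_IVM oocytes with a median of 630.3. All groups overlapped. The log2 difference of IVM from GV was 0.47 (0.68 without GV replicate 9), and that of CNP_IVM from GV was -0.16, which turned to 0.44 with TMM factors and to 0.05 without GV replicate 9. The 2 highest GV values, in replicates 9 and 7, came from the GV libraries with the most reads (36698324 and 34209674).

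DAZL, an RNA-binding protein that promotes translation of maternal transcripts during maturation, was at 19.8 to 31.5 CPM in 6 GV oocytes and at 0.218 CPM in GV replicate 9. IVM oocytes ran from 14.1 through 56.1 to 101 CPM and CNP_IVM oocytes from 33.1 through 75.3 to 242 CPM. All CNP_IVM oocytes exceeded all GV oocytes, and IVM oocytes overlapped with GV oocytes. The means were 22.7 ± 10.8 CPM in GV, 53.7 ± 31.9 CPM in IVM and, in CNP_IVM oocytes, 101 ± 73.7 CPM. The log2 difference from GV was 1.20 in IVM and 2.11 in CNP_IVM. Without GV replicate 9 the GV mean was 26.5 ± 4.67 CPM (n = 6) and the differences were 0.99, just under 2-fold, and 1.90. In CNP_IVM against GV, 99.0% of all genes had a lower difference than DAZL.

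PUM2 is a Pumilio protein, which binds its element in 3′ untranslated regions and represses targets together with CPEB1 and NANOS proteins. It was at 9.49 to 16.1 CPM in GV with a median of 11.5, at 27.9 to 60.9 CPM in IVM with a median of 43.7, and at 21.02 to 49.4 CPM in CNP_IVM oocytes with a median of 37.8. Both cultures lay wholly above GV, and they overlapped each other. The means of 12.2 ± 2.19, 45.0 ± 10.7 and 36.7 ± 9.51 CPM made PUM2 3.69-fold higher in IVM and 3.005-fold higher in CNP_IVM than in GV, log2 differences of 1.80 and 1.51. With GV replicate 9 left out these were 1.87 and 1.59.

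PABPC1, the main cytoplasmic poly(A)-binding protein of somatic cells, had a pattern of its own. It was at 44.8 to 192 CPM in GV with a median of 127, at 48.6 to 189 CPM in IVM with a median of 81.1, and at 123 to 353 CPM in CNP_IVM oocytes with a median of 247. GV and IVM covered the same range, and the CNP_IVM oocytes reached higher but overlapped with both. The means were 120.2 ± 50.1, 91.3 ± 42.2 and 251 ± 84.6 CPM. The log2 difference of CNP_IVM from GV was 1.06, and 0.91 without GV replicate 9, the GV oocyte with the lowest value. PABPC1 has close copies elsewhere in mammalian genomes, and how reads were divided between them could not be checked, so its values are uncertain.

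CNP_IVM against IVM compares the matured oocytes with each other. Of the 9 genes, PABPC1 was at least 2-fold higher, where 1.86% of all genes were, and ZAR1 at least 2-fold lower, where 14.8% were. The CNP_IVM and IVM oocytes overlapped for all 9 genes, and over all genes 1.38% lay wholly higher and 2.60% wholly lower. PABPC1 averaged 251 against 91.3 CPM, a log2 difference of 1.45 that ran from 1.35 to 1.69 over the alternatives tried. For 99.7% of all genes the difference was lower. The overlap came from IVM replicate 5, at 189 CPM against 48.6 to 97.5 CPM in the other IVM oocytes, and from CNP_IVM replicate 5 at 123 CPM and replicate 7 at 182 CPM. ZAR1 averaged 58.8 against 135 CPM, a log2 difference of -1.18. It was -0.81 with TMM factors, -0.96 with quantile normalization and -0.98 without IVM replicate 8, so the 2-fold call did not hold in these. DAZL (0.90) and PATL2 (-0.97) were just under 2-fold. DAZL came to 1.14 with TMM factors. PATL2 ran from -1.72 to -0.47 over 23 alternatives and passed 2-fold in 9 of them, and its means as they stand differed 2.29-fold. CPEB1 (-0.63), ZAR1L (-0.43), LSM14B (0.24) and PUM2 (-0.29) differed less, and PUM2 came to 0.01 with TMM factors. YBX2 stood at -0.14, and at 0.17 with TMM factors and 0.33 with quantile normalization.

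A ratio of 2 genes within an oocyte does not depend on how the library is scaled. Reads of family members were therefore compared in 7 pairs; a ratio is not corrected for gene length, so only its shift between groups can be read. The reads of ZAR1L over ZAR1 gave 0.651 to 2.07 in GV with a median of 0.735, 7.35 to 30.7 in IVM with a median of 15.5 and 14.97 to 33.1 in CNP_IVM oocytes with a median of 20.99. Both cultures were wholly above GV, with medians 21.1 and 28.6 times the GV median. The next highest GV ratio after the 2.07 of replicate 9 was 0.924.

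YBX1 is the Y-box protein of somatic cells. YBX2 over YBX1 had a median of 0.485 in GV (0.284 to 0.719), 0.0755 in IVM (0.0287 to 0.125) and 0.0423 in CNP_IVM oocytes (0.0193 to 0.0817). PATL1 is the PAT1 protein of most cells. PATL2 over PATL1 had medians of 3.75 (2.41 to 11.8), 0.538 (0.127 to 1.28) and 0.0809 (0.0378 to 0.881). In both pairs the matured oocytes lay wholly below the GV oocytes. YBX1 itself averaged 95.1, 109.6 and 164 CPM and PATL1 6.70, 12.4 and 14.4 CPM, so the oocyte member of each pair was lower after maturation and the other had a higher mean. YBX3, a further Y-box gene, averaged 11.9, 4.19 and 1.17 CPM, and its log2 difference of IVM from GV went from -1.31 to -0.62 without GV replicate 9 and that of CNP_IVM from -2.57 to -1.88.

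CPEB4, of the CPEB family's other branch, was at 8.20 to 14.5 CPM in GV, 26.1 to 49.0 in IVM and 30.0 to 85.8 in CNP_IVM oocytes, so both cultures were wholly higher. CPEB1 over CPEB4 had medians of 48.2 in GV, 26.9 in IVM and 11.5 in CNP_IVM oocytes, and the last lay wholly below GV (7.41 to 20.1 against 40.4 to 167). CPEB2 (2.57, 2.72 and 3.95 CPM) and CPEB3 (12.4, 15.6 and 20.3 CPM) overlapped in all comparisons. DAZL over BOLL, its germ cell relative, overlapped in all comparisons, with medians of 1.14, 1.63 and 2.64.

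PABPC1 over PABPC4 had medians of 2.61 in GV, 1.04 in IVM and 2.44 in CNP_IVM oocytes, with overlap throughout. PABPC4 averaged 47.6, 79.9 and 124 CPM. LSM14B over LSM14A had medians of 0.295, 0.199 and 0.323, also with overlap throughout. LSM14A averaged 35.4, 79.2 and 47.3 CPM, and both cultures lay wholly above GV only without GV replicate 9. PABPC1L, the embryonic poly(A)-binding protein gene, had no row and was not analysed here.

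**Figure D3:**
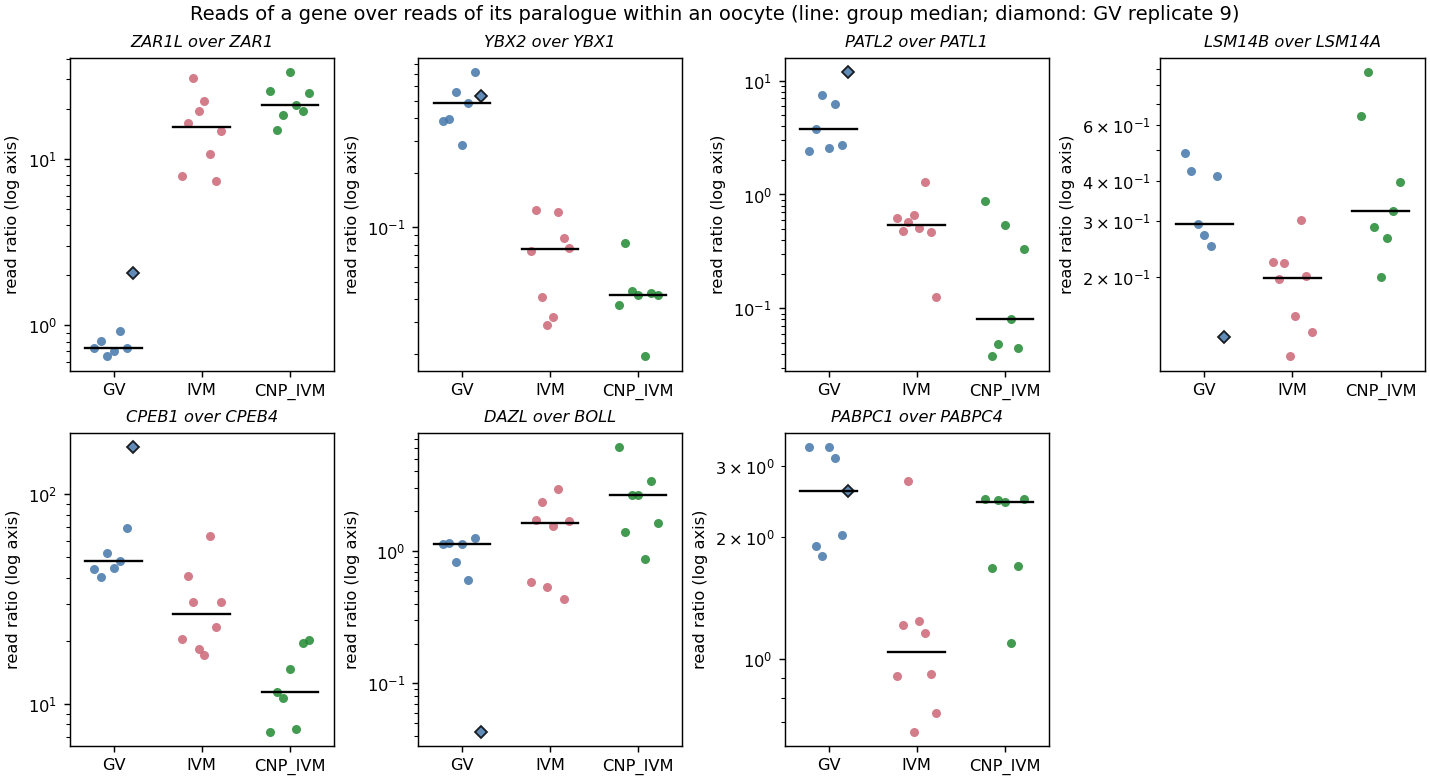
Reads of a gene over reads of a family member within the same oocyte, in 7 pairs, on log axes, by group, with the group median as a line and GV replicate 9 as a diamond. ZAR1L over ZAR1 lies higher in all matured oocytes than in any GV oocyte, and YBX2 over YBX1 and PATL2 over PATL1 lie lower.

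Oocytes of one group also differed among themselves in these genes. IVM replicates 8, 9 and 1 held the 3 highest values of ZAR1 (261, 214 and 195 CPM), of YBX2 (13.2, 11.7 and 10.7 CPM) and of LSM14B (27.6, 26.8 and 21.9 CPM). At the other end, IVM replicates 5, 6 and 7 held the 3 lowest values of ZAR1 (56.3, 58.5 and 37.4 CPM) and of YBX2 (4.22, 3.19 and 3.27 CPM). Within IVM, log2 levels of ZAR1 and YBX2 had a Pearson correlation of 0.98 and a Spearman correlation of 0.93 over 8 oocytes, and 0.98 without the 2 oocytes farthest from the median of ZAR1. The correlation of ZAR1 with LSM14B was 0.85 and with PATL2 0.75. Correlations are given as descriptions, 243 of them were computed in the 3 groups and 81 more without GV replicate 9, and the oocytes of a group share library chemistry and scaling.

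Other measures moved with ZAR1 among IVM oocytes. Genes reaching 1 CPM numbered 10783, 10752 and 10653 in replicates 1, 8 and 9 and 9460, 9817 and 9431 in replicates 5, 6 and 7, and the correlation of this number with ZAR1 was 0.97. The summed cumulus and granulosa markers had a correlation of 0.98 with ZAR1 and STAR alone 0.96, whereas the sum without STAR had 0.17 (-0.35 without the 2 farthest). Library size gave 0.74, and 0.25 without the 2 farthest libraries. The part of these measures in the ZAR1 values was not tested. Among the 7 CNP_IVM oocytes, with ZAR1 at 42.8 to 84.4 CPM, the correlation of ZAR1 with YBX2 was 0.70 (0.92 without the 2 farthest), and that of ZAR1 with CPEB1 was 0.91 (0.70). PUM2 had a correlation of 0.95 with the summed cumulus and granulosa markers over the GV oocytes (0.89 without replicate 9), 0.64 over IVM and 0.92 over CNP_IVM oocytes. With the sum without STAR it was 0.76 over GV (0.50 without replicate 9), 0.34 over IVM and 0.97 over CNP_IVM oocytes. Without the 2 oocytes farthest from the median of that sum, these were -0.21 (-0.37 without replicate 9), -0.68 and 0.85. Between groups, the median of that sum, whose markers went both ways, was higher in matured than in GV oocytes, as PUM2 was. The sum with STAR was lower. The part of both sums in the PUM2 values was not tested.

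**Figure D4:**
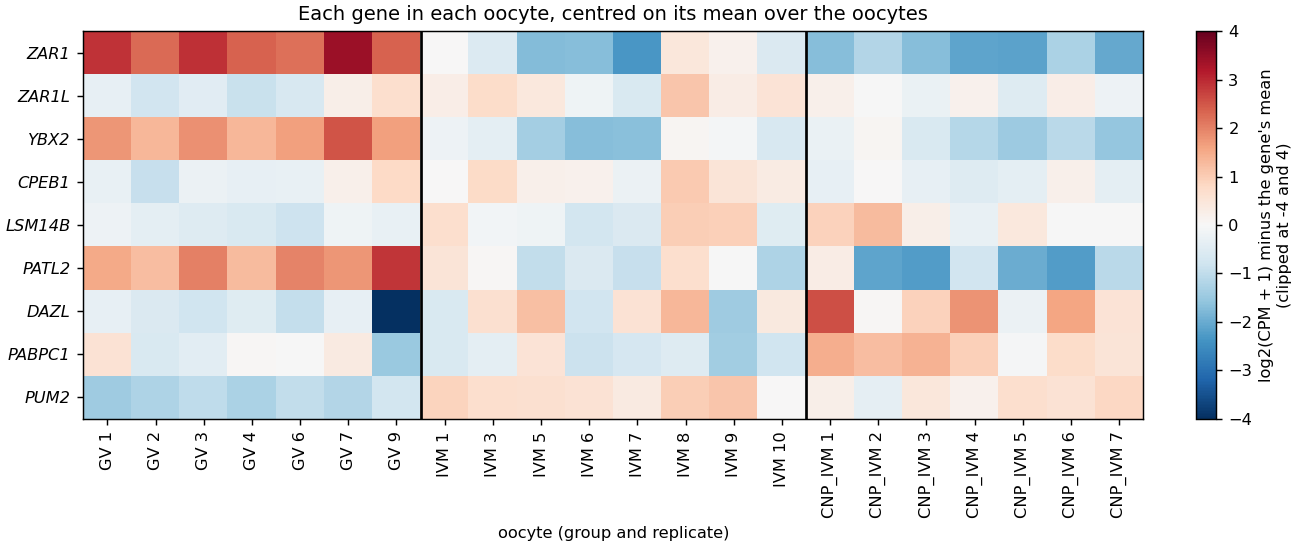
Log2 level, log2(CPM + 1), of each of the 9 genes in each oocyte after subtracting the gene's mean over the 22 oocytes, with red above and blue below, clipped at -4 and 4. DAZL in GV replicate 9 lies at -5.06 and is the clipped cell, and ZAR1, YBX2 and PATL2 are red in all GV oocytes.

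For each gene the 2 most similar others were sought among 7119 other genes with a mean of at least 10 CPM, by the root mean square difference of log2 levels over 22 oocytes after centring each gene on its mean. For ZAR1 these were GADD45GIP1 (0.32) and WDR5 (0.33), against a root mean square of 1.95 for ZAR1 itself. Without GV replicate 9 they ranked 4 and 3. WDR5, a subunit of histone methyltransferase complexes, averaged 853 CPM in GV, 109.8 in IVM and 42.0 in CNP_IVM oocytes. For YBX2 they were YBEY (0.35) and YPEL3 (0.38), and for PATL2, with a looser match, ODF4 (0.54) and HSPA1A (0.54).

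CPEB1 and ZAR1L shared TYMS, thymidylate synthase, among their nearest genes (0.20 and 0.28), together with FBXL5 (0.26) for CPEB1 and RNPS1 (0.27) for ZAR1L. These matches are loose beside the genes' own root mean squares of 0.47 and 0.52, and without GV replicate 9 TYMS ranked 9 and RNPS1 4 for ZAR1L. TYMS averaged 471 CPM in GV, 664 in IVM and 476 in CNP_IVM oocytes. PUM2 was nearest to ABHD18 (0.24) and QTRT2 (0.27), and LSM14B to ZFP91 (0.29) and TEX2 (0.29). PABPC1 was nearest to LSM5 (0.35) and LOC530653 (0.41), and DAZL to SLCO4C1 (0.61) and HAS3 (0.67). The DAZL distances were the largest of the set, against a root mean square of 1.49 for DAZL itself.

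The wider pathway was described by 4 lists with 103 genes, of which 97 had a row and 95 passed the filter. These lists, too, were chosen with earlier results of these data known. In IVM against GV 26 were called higher and 15 lower, or 27.4% and 15.8% where all genes gave 15.9% and 33.0%, and the median log2 difference was 0.33 against -0.28 for all genes. In CNP_IVM against GV 19 of the 95 were higher and 25 (26.3%) lower, where all genes gave 15.3% and 42.0%, with a median of 0.30 against -0.61. In CNP_IVM against IVM 2 were higher and 15 lower, or 2.11% and 15.8% where all genes gave 1.86% and 14.8%, with a median of -0.27 against -0.28. With TMM factors the higher and lower counts were 34 and 14, 43 and 21, and 4 and 9 in the same order. All 11852 genes then gave 2638 and 3388, 3012 and 3960, and 457 and 992. With quantile normalization the lists gave 40 and 13, 42 and 17, and 5 and 8. All genes then gave 3151 and 2874, 3540 and 3196, and 484 and 721. The background thus moved with the scaling too.

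Partners in the stored particles (21 past the filter) had 8 higher and 4 lower in IVM against GV, or 38.1% and 19.05% beside 15.9% and 33.0% of all genes. In CNP_IVM against GV 3 were higher and 4 lower, or 14.3% and 19.05% beside 15.3% and 42.0%. The medians were 0.91 and 0.59. Without GV replicate 9, 9 partners were higher and 2 lower in IVM against GV, and 3 and 4 in CNP_IVM against GV. All 11852 genes then gave 1940 and 3761, and 1763 and 4796. EIF4E1B, the oocyte cap-binding protein that partners with ZAR1 and EIF4ENIF1, was lower in every matured oocyte: 407 CPM (245 to 954) in GV, 79.4 (39.0 to 148) in IVM and 40.7 (36.2 to 43.6) in CNP_IVM. Its log2 differences of -2.34 and -3.29 were -1.98 and -2.93 without GV replicate 9. The helicase gene DDX6 (22.1, 36.7 and 28.4 CPM) and EIF4ENIF1, its 4E-T partner (81.8, 155 and 141 CPM), were under 2-fold as deposited, though EIF4ENIF1 passed it with TMM factors (1.12 in IVM). The stress granule genes G3BP2 (41.1, 126 and 80.7 CPM) and G3BP1 (136, 349.7 and 156 CPM) had their highest means in IVM. G3BP1 was wholly lower in CNP_IVM than in IVM oocytes, by -1.16 on the log2 scale (-0.89 with TMM factors). FMR1 (30.3, 87.4 and 95.1 CPM) and IGF2BP3 (189, 374 and 550.1 CPM), both RNA-binding regulators, were wholly higher in both cultures than in GV. FXR2, a relative of FMR1, was wholly lower (35.6, 9.85 and 5.10 CPM). CAPRIN1, a partner of G3BP1, averaged 24.8, 5.72 and 4.48 CPM, and its log2 difference of IVM from GV went from -1.94 to -0.99 without GV replicate 9 and that of CNP_IVM from -2.24 to -1.29.

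Of the polyadenylation machinery (31 past the filter), 7 were higher and 2 lower in IVM against GV, or 22.6% and 6.45% beside 15.9% and 33.0% of all genes. In CNP_IVM against GV 7 were higher and 8 lower, or 22.6% and 25.8% beside 15.3% and 42.0%. The medians were 0.28 and -0.08. TENT2, also called GLD2, the poly(A) polymerase that works with CPEB1, averaged 64.3 CPM (13.5 to 81.4) in GV oocytes. It was wholly higher in IVM, at 134 CPM (111 to 150.1), and in CNP_IVM, at 112 CPM (81.8 to 140.1). Its log2 difference of 1.04 in IVM was 0.87 without GV replicate 9. PAPOLG, a canonical poly(A) polymerase, averaged 689 CPM (131 to 873), 2187 CPM (1545 to 2850.5) and 2254 CPM (1726 to 2809). The cleavage factors CPSF3 (69.8, 23.8 and 17.4 CPM) and NUDT21 (274, 114 and 93.7 CPM) were wholly lower in both cultures than in GV. Against IVM, CNP_IVM oocytes had 2 members higher and 7 lower, or 6.45% and 22.6% beside 1.86% and 14.8% of all genes. TENT4B, a noncanonical poly(A) polymerase, was the higher one whose groups did not overlap (13.6 against 5.73 CPM), and RBBP6 the other (14.7 against 4.64 CPM). TENT5C (5.68 against 35.2 CPM) and CLP1 (128 against 373 CPM) were the furthest on the lower side among members with at least 10 CPM in either group, with overlap.

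Among poly(A)-binding proteins and their partners (14 past the filter), 4 were higher and 2 lower in IVM against GV, or 28.6% and 14.3% beside 15.9% and 33.0% of all genes. In CNP_IVM 4 were higher and 4 lower, or 28.6% each beside 15.3% and 42.0%. GSPT2, named after its values were seen, was called lower in both (4.99, 0.772 and 0.806 CPM), and neither call held without GV replicate 9 (0.09 and 0.12). PAIP2, which blocks PABPC1 from binding the initiation complex, averaged 183 CPM (141 to 222) in GV oocytes. It was wholly lower in IVM, at 23.1 CPM (12.6 to 38.3), and in CNP_IVM, at 25.3 CPM (19.01 to 30.2). PABPN1L, an oocyte poly(A)-binding protein, was at 839.7, 755 and 281 CPM, wholly lower in CNP_IVM than in GV. LARP4 (8.995, 30.5 and 26.3 CPM) and EIF4G3 (23.5, 48.6 and 62.7 CPM), both partners of the poly(A)-binding protein, were wholly higher in CNP_IVM than in GV. LARP1 averaged 7.70, 18.4 and 12.0 CPM. LARP4B averaged 11.3, 11.4 and 3.98 CPM.

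Other regulators of untranslated regions (29 past the filter) had 7 higher and 7 lower in IVM against GV, or 24.1% each beside 15.9% and 33.0% of all genes. In CNP_IVM 5 were higher and 9 lower, or 17.2% and 31.0% beside 15.3% and 42.0%. NANOS1, the Pumilio partner, averaged 70.2 CPM (30.2 to 131) in GV oocytes. Its level was 12.3 CPM (1.04 to 35.6) in IVM, which overlapped with GV, and 1.59 CPM (0.728 to 3.45) in CNP_IVM, which did not. EIF4E2, a cap-binding repressor, was wholly lower in both cultures (173, 41.9 and 35.9 CPM). BICC1 (16.97, 82.9 and 40.3 CPM), QKI (3.17, 14.5 and 13.8 CPM) and SYNCRIP (15.01, 39.0 and 46.7 CPM) were wholly higher in both. ZFP36, which binds AU-rich elements, averaged 12.8, 29.2 and 7.13 CPM, the lowest mean being in CNP_IVM, with overlap. Its log2 difference of IVM from GV went from 1.13 to 1.86 without GV replicate 9. BOLL averaged 23.5, 37.1 and 37.0 CPM.

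**Figure D5:**
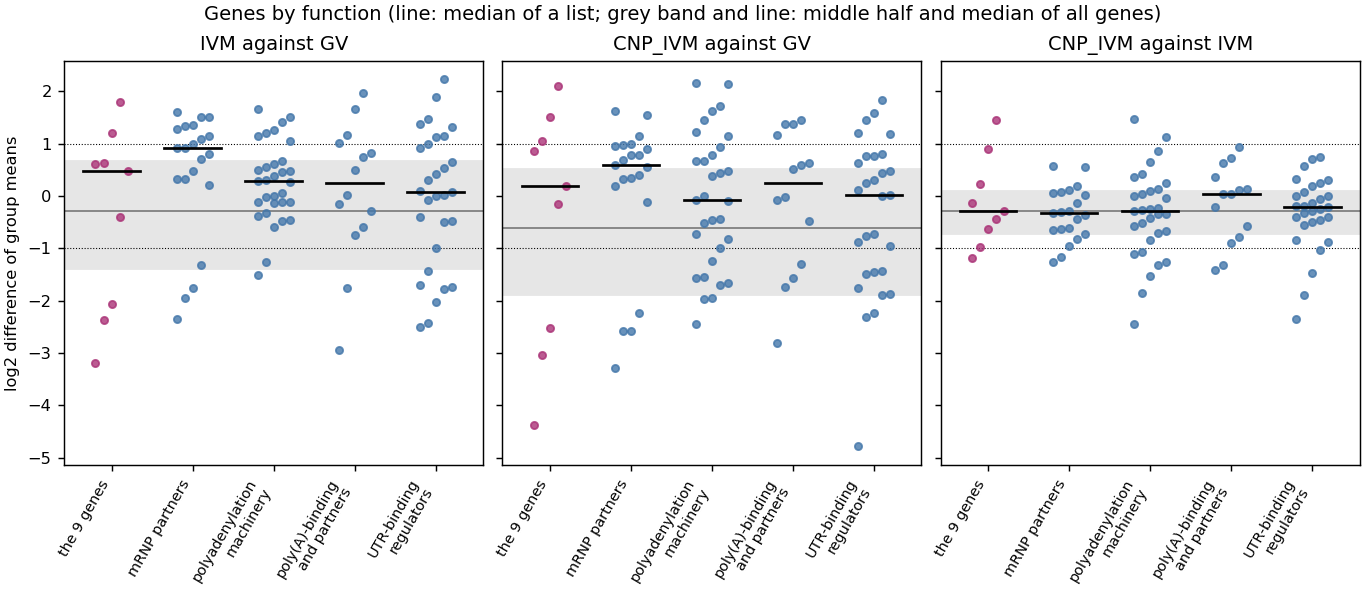
Log2 difference of group means for the 9 genes and for the members of the 4 wider lists that passed the filter, in the 3 comparisons, with the list median as a black line. The grey band and line give the quartile range and the median of all 11852 genes, and dotted lines mark 2-fold; the median of the particle partners was 0.91 in IVM against GV.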

How the data were processed

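Single-oocyte libraries were made with SMART-Seq v4 and Nextera XT and sequenced in pairs on a HiSeq X, per the labels' protocols. HISAT2 2.2.1, Trim Galore 0.6.7, featureCounts 2.0.1, edgeR and FastQC, with no role or order, stand in the submitters' processing notes, as does the mouse build GRCm39, although the symbols match cattle. The authors deposited 1 table, named for TPM, whose values are CPM: 100% of the values in each library were whole multiples of 1 step (tolerance 0.01 read), which gave back reads and library totals. Columns were matched through the sample descriptions and groups taken from titles; 22 of 29 samples had a column, 7 were not analysed here, and 0 columns were left over. Group means, each plus 1 CPM, were compared on the log2 scale over genes with at least 1 CPM in 6 libraries. This understates differences of low genes. TMM factors came from edgeR 4.0.16 on the recovered reads. No count test was run, since a group counted as 1 sample. Steps were tested on simulated reads. The members and the lists (storage particle partners, polyadenylation machinery, poly(A)-binding proteins and partners, regulators of untranslated regions, and oocyte, cumulus and granulosa, and blood and immune markers) were chosen with earlier results of these data known. Genes named beyond the 9 were fixed paralogues and partners, the 2 furthest members per list and direction among those 2-fold apart with at least 10 CPM, and the 2 nearest genes; some of these are not reported here, and within-oocyte ratios were added after the values had been seen. Alternatives were TMM factors, quantile normalization, 0.1 or 5 CPM added, no filter or 10 CPM, medians, means of logs, and leaving out each oocyte.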

Additional observations from a re-analysis of the deposited data

Results flagged for a closer look

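A value was looked at again when its gap to the nearest other oocyte of its group, divided by the group's range, passed Dixon's 95% limit. Of 27 sets (9 genes in 3 groups) 5 had such an oocyte. Chance gives about 1 in 20 only for independent, normally distributed values. The limit was applied to CPM, not to log2 levels, and the sets share oocytes, so the 5 were not set against chance. GV replicate 9 gave 2 of the 5: DAZL at 0.218 CPM, where the next lowest GV oocyte had 19.8 CPM, and PATL2 at 59.6 CPM, where the next highest had 32.8 CPM. This is the oocyte with the conflicting treatment label. The others were YBX2 at 76.1 CPM in GV replicate 7 (next 46.9 CPM), PATL2 at 9.40 CPM in CNP_IVM replicate 1 (next 3.96 CPM) and PABPC1 at 189 CPM in IVM replicate 5 (next 97.5 CPM).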

How the results depend on the processing

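No paired analysis was possible because the results come from no test and the labels do not say that equal replicate numbers share an animal or day. Of 27 differences (9 genes in 3 comparisons), 20 kept their side of 2-fold and 23 their sign under all alternatives run. Of the 13 that were 2-fold apart, 10 stayed so throughout; DAZL in IVM against GV, PABPC1 in CNP_IVM against GV and ZAR1 in CNP_IVM against IVM did not. Summed over a group, each of the 9 genes held 753 to 463108 reads. Single oocytes held as few as 8 reads (DAZL in GV replicate 9), and PATL2 had 30 in CNP_IVM replicate 6. Since 1 oocyte is 1 library, its RNA losses are unknown. The cause of the changes below was not tested, except that a stricter filter leaves fewer genes. Among counts, only the larger changes are listed, unless a gene is named.

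Among all genes, those at least 2-fold higher in CNP_IVM against GV numbered 3012 with TMM factors and 3540 with quantile normalization, and in IVM against GV 3151 with quantile normalization. Those lower in CNP_IVM against GV numbered 3196 with quantile normalization and 3009 with a filter of 10 CPM, which left 2390 lower in IVM against GV. For CNP_IVM against IVM, 457, 484, 395 and 113 were higher and 992, 721, 2793 and 743 lower with TMM factors, quantile normalization, 0.1 CPM and 5 CPM added.

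Of the 9 genes, the number higher in CNP_IVM against IVM was 2 with TMM factors and with quantile normalization and 1 to 2 with an oocyte left out. The number lower was 0 with both scalings, 2 with 0.1 CPM added and with medians, and 0 to 2 with an oocyte left out. The number higher in IVM against GV was 1 to 2 with an oocyte left out, 1 being without GV replicate 9. LSM14B passed 2-fold in IVM against GV with quantile normalization (1.17). In CNP_IVM against GV it did so with TMM factors (1.38) and quantile normalization (1.77). PABPC1 fell under 2-fold in CNP_IVM against GV in 5 alternatives, to 0.91 at the lowest.

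In the wider lists, those higher in CNP_IVM against GV numbered 43 with TMM factors and 42 with quantile normalization, and in IVM against GV 40 with quantile normalization. For CNP_IVM against IVM, 4 and 5 were higher with these scalings and 1 with 5 CPM added, with the 10 CPM filter or with medians, and 9 and 8 were lower with TMM factors and quantile normalization. The median in CNP_IVM against GV was 0.82, 0.87 and 0.50 with TMM factors, quantile normalization and the 10 CPM filter, and that in CNP_IVM against IVM was 0.0096 and 0.017 with TMM factors and quantile normalization.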

Other observations

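AURKA, the Aurora A kinase that phosphorylates CPEB1 in oocytes of several species, was picked out after its values had been seen. Its mean was 6838 CPM (5826 to 9106) in GV and 8204 CPM (6422 to 9274) in IVM. CNP_IVM oocytes had 3429.9 CPM (3101 to 3839.6), and all lay below all others. Its log2 difference of CNP_IVM from IVM was -1.26, with -0.995 under TMM factors and -1.32 under quantile normalization. CELF1, a deadenylation factor of the wider list also chosen after its values were seen, averaged 94.1 CPM (48.3 to 283), 71.2 CPM (27.6 to 148) and 25.1 CPM (22.9 to 29.8), wholly lower in CNP_IVM than in GV. GV replicate 9 held its highest value, and without it the GV mean was 62.7 CPM.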
